A study of Mus musculus with 11 samples.

Results

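Aire and 8 genes for proteins that bind it, modify it or process its transcript were followed in thymic epithelial cells of NOD mice carrying the R249C variant of Aire. The members are Aire, Sirt1, Top1, Prkdc, Chd4, Hipk2, Jmjd6, Atf7ip and Mbd1. They were taken by symbol from the deposited gene count table, and all 9 were found among its 56691 genes. Bulk RNA sequencing covered 11 libraries, 3 from R249C/R249C, 5 from WT/R249C and 3 from WT/WT mice, all on the NOD background and aged 4 to 8 weeks. NOD is a strain prone to autoimmune diabetes. Cells of the digested thymus were depleted of CD45-expressing cells with magnetic beads and sorted for EpCAM, an epithelial surface protein.

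Aire is a transcriptional regulator of mature medullary thymic epithelial cells, in which it releases the expression of genes otherwise confined to peripheral tissues, so that developing T cells meet those proteins as self. It has no known sequence-specific site of its own and works through partners: an ATPase of chromatin, enzymes that cut or repair DNA, proteins that read methylated DNA, and enzymes that modify Aire itself or the splicing of its transcript. Its SAND domain, in which the R249C residue lies, takes part in DNA and protein contacts. The members below are grouped by these roles.

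The stretch around the altered codon is shown because it holds the residue that the variant replaces. In the GENCODE M21 models of Aire (build GRCm38, chromosome 10, minus strand), the codon of the residue changed by R249C was CGG, arginine, in 12 of 13 coding models, the ones that hold a start codon and reach that codon. The capitals mark it within 63 coding bases of 1 exon, chr10:78039958-78040020.
Aire codon of R249C: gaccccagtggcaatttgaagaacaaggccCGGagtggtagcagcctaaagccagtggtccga
Every cysteine codon lies at least 2 bases from CGG, so R249C needs at least 2 changed bases in this codon. The sources used here do not give the bases of the variant allele, and the count table, which holds 1 value per gene, does not separate the alleles.

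Libraries held between 60560348 and 182319976 counts, with 22101 to 31180 genes detected, and the smallest count of any member in any library was 824, so that counting error is small beside the spread between libraries. Batch A, as the labels call it, holds the 3 R249C/R249C libraries, 3 WT/R249C and 1 WT/WT library, and batch B holds 2 WT/R249C and 2 WT/WT libraries. For WT/R249C replicates 4 and 5, the 2 of batch B, the title reads WT/R249C and the genotype field R249C/R249C. They were grouped by title. Epcam was at 355.0 to 466.3 CPM (a gene's counts scaled to a common library total) in R249C/R249C, 443.1 to 520.5 in WT/R249C and 367.1 to 449.6 in WT/WT. Ptprc, which encodes CD45, was at 6.95 to 17.55, 0.2166 to 18.81 and 13.58 to 26.23 CPM in the same order of genotypes. Leukocyte transcripts were not level across the genotypes: the summed CPM of 7 B cell markers was 264.6 to 548.7 in R249C/R249C, 104.6 to 491.5 in WT/R249C and 1422 to 3018 in WT/WT. Of the 7, 1 to 3 were at 0 counts in each R249C/R249C library, 0 to 3 in WT/R249C and 0 to 1 in WT/WT, and Ms4a1, which encodes CD20, averaged 0 CPM in R249C/R249C, 0.364 in WT/R249C and 2.66 in WT/WT. The sum of 11 thymocyte markers was 98.83 to 146.2 CPM in R249C/R249C, 79.04 to 162.4 in WT/R249C and 156.0 to 218.2 in WT/WT. The part of these cells in the member values was not tested.

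Per kilobase of exon, Aire was the most abundant of the 9 transcripts, by mean CPM per kilobase over the 11 libraries. It averaged 139.5 ± 58.2 CPM per kilobase (SD, n = 11) and lay above every other member in all 11 libraries. Chd4 followed at 19.7 ± 5.80 CPM per kilobase and exceeded Jmjd6, the next in order, in 11 of 11 libraries. Jmjd6 (11.4 ± 3.71), Top1 (11.1 ± 2.06), Sirt1 (10.4 ± 4.93), Mbd1 (8.54 ± 2.24), Atf7ip (7.22 ± 2.44) and Hipk2 (7.12 ± 1.85 CPM per kilobase) lay close together. Between neighbours of that run the first exceeded the next in 6 to 8 of the 11 libraries, so their order was not separated from the spread. Prkdc was lowest at 1.33 ± 0.396 CPM per kilobase and lay below Hipk2 in all 11. Lengths are unions of exons in GENCODE M21, which can exceed the length of any single transcript. The unions were 8019 bases for Chd4, 10426 for Top1 and 20726 for Atf7ip, and the order below Aire, Chd4 included, rests on them.

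**Figure D1:**
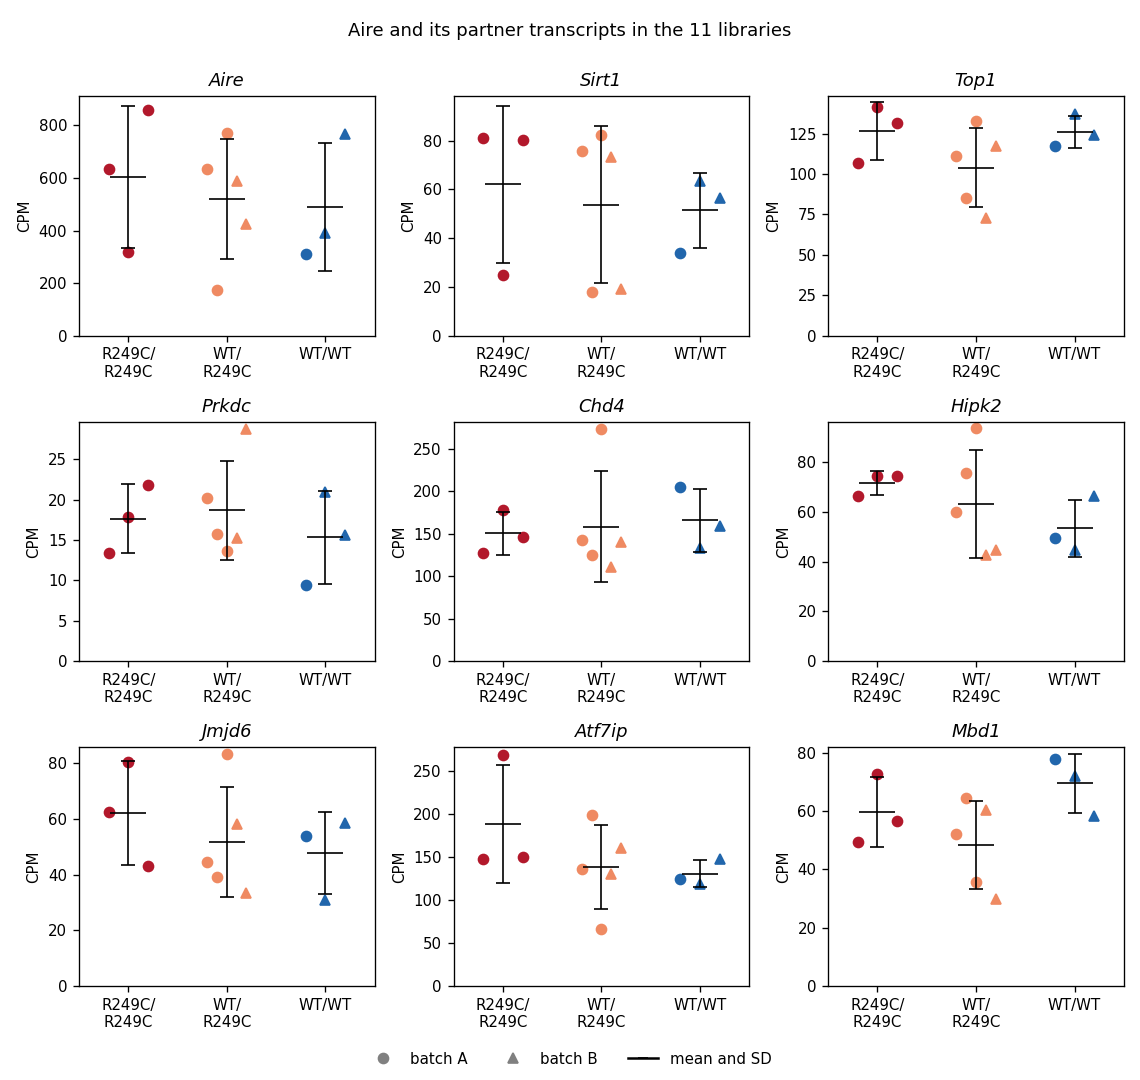
CPM of each member in the 11 libraries (vertical axes, each from 0) by genotype (horizontal axes), with circles for batch A and triangles for batch B; black lines are group means and SDs. For all 9 members the points of each genotype overlap those of the others, and relative to the mean Sirt1 and Aire spread most within R249C/R249C and within WT/R249C, while in WT/WT Aire, Prkdc and Jmjd6 spread more than Sirt1.

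The Aire transcript was at 633.6, 317.8 and 858.3 CPM in R249C/R249C libraries, at 633.0, 173.9, 769.0, 588.7 and 425.5 CPM in WT/R249C replicates 1 to 5, and at 311.7, 391.4 and 768.3 CPM in WT/WT. Each genotype thus held both low and high libraries, and the lowest and highest of the 11 were WT/R249C replicate 2 and R249C/R249C replicate 3. Within a genotype the highest library exceeded the lowest 2.70-fold in R249C/R249C, 4.42-fold in WT/R249C and 2.47-fold in WT/WT. The biological coefficient of variation that edgeR estimated for Aire was 46.7%, the second highest among the members after the 58.5% of Sirt1. Of Aire's exon bases 67, or 1.75%, are shared with exons of Dnmt3l on the opposite strand, which was at 0 to 29.8 CPM. Nothing in the sources used here says whether counting used strand.

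Sirt1, a deacetylase that acts on Aire protein, was at 81.0, 24.8 and 80.4 CPM in R249C/R249C, at 75.9, 18.02, 82.2, 73.4 and 19.2 CPM in WT/R249C, and at 34.0, 63.6 and 56.7 CPM in WT/WT. The levels fell on both sides of a gap: 4 libraries lay between 18.02 and 34.0 CPM and 7 between 56.7 and 82.2 CPM. The 4 low libraries were R249C/R249C replicate 2, WT/R249C replicates 2 and 5, and WT/WT replicate 1, so each genotype and both batches had a low one. Hipk2, a kinase that phosphorylates Aire, was at 66.3, 74.4 and 74.4 CPM in R249C/R249C, at 59.8, 75.6, 93.8, 42.5 and 44.7 CPM in WT/R249C, and at 49.5, 44.5 and 66.4 CPM in WT/WT. All 3 R249C/R249C values lay inside the range of WT/R249C, and the lowest of them was just below the highest WT/WT value.

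Jmjd6, an oxygenase that acts on histones and splicing factors and is known in mice to be needed for full splicing of the Aire transcript, was at 62.6, 80.4 and 43.2 CPM in R249C/R249C, at 44.5, 39.0, 83.2, 58.2 and 33.5 CPM in WT/R249C, and at 53.8, 30.9 and 58.4 CPM in WT/WT. The ranges of the genotypes overlapped, and 2 of the 3 R249C/R249C libraries lay above every WT/WT library. Its exons share 172 bases, or 3.66%, with Mettl23 on the opposite strand, which was at 8.77 to 35.9 CPM, so a part of the Jmjd6 counts may belong to that gene if strand was not used.

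Top1, the topoisomerase that nicks DNA to relieve supercoils and is found with Aire on chromatin, was at 107.1, 141.6 and 131.4 CPM in R249C/R249C, at 111.1, 85.5, 132.8, 72.6 and 117.4 CPM in WT/R249C, and at 117.4, 136.9 and 124.4 CPM in WT/WT. In WT/R249C 4 of the 5 libraries were at or below the lowest WT/WT library. Prkdc, the catalytic subunit of the DNA-dependent protein kinase, which binds and phosphorylates Aire, was at 13.3, 17.8 and 21.8 CPM in R249C/R249C, at 20.2, 15.7, 13.6, 15.2 and 28.7 CPM in WT/R249C, and at 9.42, 20.9 and 15.7 CPM in WT/WT. Its highest value was in WT/R249C replicate 5 and its lowest in WT/WT replicate 1.

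Chd4, the ATPase of the NuRD chromatin remodelling complex, was at 126.9, 177.8 and 146.7 CPM in R249C/R249C, at 142.8, 124.8, 273.3, 110.3 and 140.3 CPM in WT/R249C, and at 205.6, 132.7 and 159.2 CPM in WT/WT. The value of WT/R249C replicate 3 stood apart from the other 4 of its genotype. That library was the shallowest of the 11, at 60560348 counts, and also had the highest Hipk2 and Jmjd6 and the lowest Atf7ip of all 11 libraries. The part of depth in these values was not tested.

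Atf7ip, which works with the H3K9 methyltransferase Setdb1 and, with Mbd1, tethers Aire to methylated DNA, was at 147.4, 267.7 and 149.3 CPM in R249C/R249C, at 135.9, 199.0, 66.4, 129.6 and 160.1 CPM in WT/R249C, and at 124.9, 118.4 and 147.9 CPM in WT/WT. R249C/R249C replicate 2, a library low in Aire, held the highest value, while the other 2 R249C/R249C libraries lay within 2 CPM of each other. Mbd1, the reader of methylated CpG in that pair, was at 49.4, 72.8 and 56.6 CPM in R249C/R249C, at 52.0, 64.3, 35.8, 60.4 and 29.9 CPM in WT/R249C, and at 78.0, 72.0 and 58.3 CPM in WT/WT. Here 3 of the 5 WT/R249C libraries lay below all WT/WT libraries, and the remaining 2 overlapped them.

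Setting R249C/R249C against WT/WT asks how transcript levels differ when both Aire copies carry the variant. None of the 9 members differed between these genotypes beyond the spread of the libraries. The fitted log2 fold changes ran from -0.42 for Chd4 (95% interval -1.07 to 0.22) to 0.68 for Prkdc (-0.31 to 1.67). Atf7ip was at 0.62 (-0.43 to 1.67), Aire at 0.57 (SE 0.67), Sirt1 at 0.38 (-1.58 to 2.33), Jmjd6 at 0.26 (-0.71 to 1.23), Hipk2 at 0.13 (-0.53 to 0.78), Top1 at -0.02 (-0.57 to 0.53) and Mbd1 at -0.32 (-1.19 to 0.54). These widths differ greatly: the interval of Top1 covers folds from 0.673 to 1.45, and that of Sirt1 folds from 0.335 to 5.04. The edgeR quasi-likelihood test, fitted to all 11 libraries with batch as a term and adjusted by Benjamini-Hochberg, gave each member an adjusted p of 1. It called 0 of the 9 members, against 0% of the 26980 genes tested. At an unadjusted p under 0.05 it took 0 of the 9, against 3.21% of genes. DESeq2 also called 0 of the 9, against 1.63% of the genes it adjusted. The CPM of the 2 genotypes overlapped for 9 of 9 members, where 8.22% of the 10951 genes with a mean of at least 10 CPM did not overlap.

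In WT/R249C against WT/WT, which asks about a single variant copy, the largest fitted difference was that of Mbd1. Its mean was 48.5 ± 15.1 CPM in WT/R249C (SD, n = 5) and 69.5 ± 10.1 CPM in WT/WT (n = 3). The log2 fold change was -0.55 (95% interval -1.24 to 0.13), with an edgeR unadjusted p of 0.0998, the smallest of all member tests, and an adjusted p of 1. It was -0.64 within batch A and -0.48 within batch B, whose WT/R249C libraries are replicates 4 and 5. Batch A has 1 WT/WT library, which at 78.0 CPM had the highest Mbd1 of all 11. In batch B, replicate 4 was at 60.4 CPM, inside the WT/WT range of 58.35 to 72.0, and replicate 5 at 29.9. Over left-out libraries the log2 fold change of Mbd1 ran from -0.87 without replicate 4 to -0.36 without replicate 5. Top1 was at -0.31 (-0.75 to 0.12), Chd4 at -0.22 (-0.73 to 0.30), and Prkdc at 0.49 (-0.29 to 1.28). Aire (0.20, SE 0.53), Sirt1 (0.10, -1.45 to 1.65), Hipk2 (0.05, -0.46 to 0.57), Jmjd6 (0.04, -0.73 to 0.82) and Atf7ip (0.13, -0.70 to 0.96) had fitted differences near 0 with wide intervals. Here too edgeR called 0 of the 9 members and 0% of genes, took 0 of 9 at an unadjusted p under 0.05 against 3.48% of genes, and DESeq2 called 0 of 9 against 1.09%. The groups overlapped for 9 of 9 members, and 3.3% of genes had groups that did not.

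R249C/R249C was set against WT/R249C in the 6 libraries of batch A, a comparison that asks what the other variant copy adds. Fitted log2 fold changes lay between -0.20 for Chd4 (95% interval -0.94 to 0.54) and 0.50 for Atf7ip (-0.68 to 1.68). Top1 had the narrowest pair of bounds after Hipk2, at 0.25 (-0.25 to 0.75), and Hipk2 was at -0.04 (-0.52 to 0.43). Mbd1 (0.25), Aire (0.26), Jmjd6 (0.22), Sirt1 (0.14) and Prkdc (0.12) had intervals that all included 0. By edgeR 0 of 9 members were called, against 0% of the 23695 genes tested, and 0 of 9 had an unadjusted p under 0.05, against 1.08% of genes. DESeq2 called 0 of 9 members and 0.157% of genes. Groups overlapped for 9 of 9 members, while 5.62% of genes had groups that did not. Across the 3 comparisons the sign of the fold change turned in at least 1 alternative for 13 of the 27 member results. The comparisons with WT/WT share their WT/WT libraries, and their values are given side by side only. Titles call the libraries biological replicates and the number of mice per library is not given, so p-values measure the spread between libraries.

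**Figure D2:**
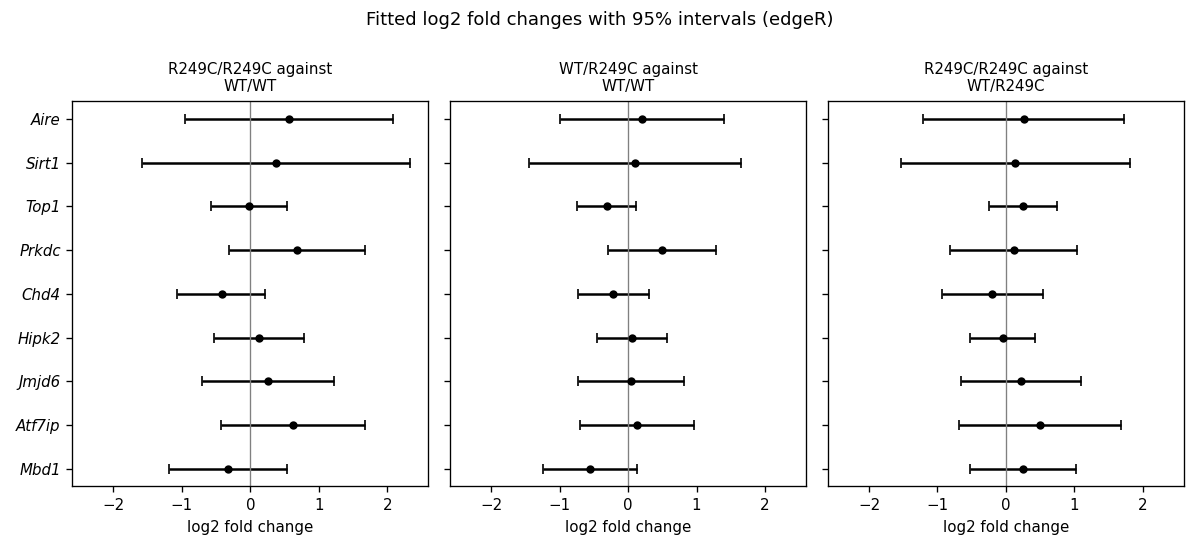
Fitted log2 fold changes (horizontal axes) with 95% intervals for the 9 members in the 3 comparisons, first genotype over second; the grey line is 0. All 27 intervals include 0, and those of Aire and Sirt1 are the widest.

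Across the libraries, Sirt1 was the partner whose level moved most closely with that of Aire. The Pearson r of log2(CPM + 1) was 0.82 over the 11 libraries (Spearman rho 0.80), and 0.97 over the 7 libraries of batch A. Batch B, with 4 libraries, is too small for a value of its own. Aire and Sirt1 were there at 588.7 and 73.4 CPM in WT/R249C replicate 4 and 425.5 and 19.2 in replicate 5. They were at 391.4 and 63.6 CPM in WT/WT replicate 2 and 768.3 and 56.7 in replicate 3. With both batches centred on their means r was 0.83, which does not tell whether batch B alone held the relation. Without the 2 libraries farthest from the median of Aire, WT/WT replicate 1 and WT/R249C replicate 2, r was 0.72. Leaving out each library in turn gave 0.75 to 0.90. These values are descriptions over libraries of 3 genotypes and 2 batches, and the 8 relations were given no p.

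The libraries below the gap in the Sirt1 levels were also low in Aire. The 4 libraries low in Sirt1 had 173.9 to 425.5 CPM of Aire, and the 7 high ones 391.4 to 858.3 CPM, so that the 4 were among the 5 lowest in Aire. No r is set beside the 0.82 for either side of the gap, since a division on Sirt1 narrows its own range, to 56.7 to 82.2 CPM in the 7 high libraries. WT/R249C replicate 5 had 45.2 CPM of Sirt1 per 1000 CPM of Aire and WT/WT replicate 2 had 162.5, the lowest and the highest ratio. Both are libraries of batch B, and the other 9 libraries lay from 73.8 to 127.8. The division at the gap was made after the values were seen.

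Atf7ip and Mbd1 were the partners with negative values. For Atf7ip r was -0.51 (rho -0.24; -0.57 in batch A), and leaving out each library in turn gave -0.58 to -0.41. For Mbd1 r was -0.41, with a rho of -0.65 and -0.69 in batch A, and leave-one-out values of -0.64 to -0.31. Jmjd6 (0.28), Top1 (0.23), Chd4 (0.15), Hipk2 (0.15) and Prkdc (0.11) lay nearer to 0, and of these 5 all but Jmjd6 turned negative when a single library was left out. Among all 36 pairs of members r was above 0 in 20 and below in 16, with a median of 0.06 and a range from -0.62, for Sirt1 with Atf7ip, to the 0.82 of Aire with Sirt1. Chd4 had 0.60 with Top1, 0.56 with Jmjd6 and 0.51 with Hipk2, pairs in which WT/R249C replicate 3 was at or near the top for each gene.

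**Figure D3:**
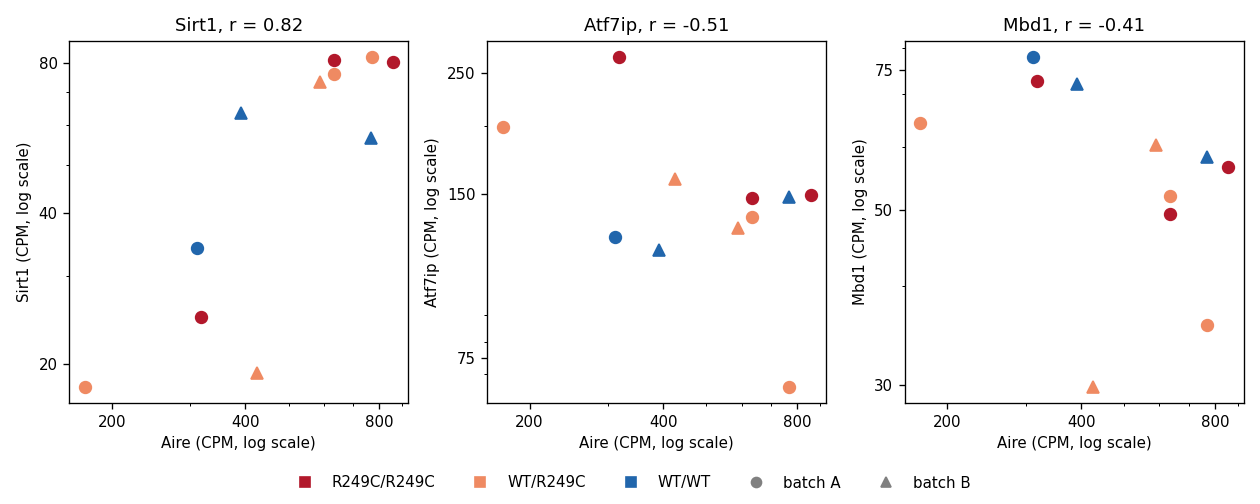
CPM of Sirt1, Atf7ip and Mbd1 (vertical axes, log scales) against CPM of Aire (horizontal axes, log scales) in the 11 libraries, coloured by genotype, with circles for batch A and triangles for batch B. Sirt1 shows 4 libraries at 34.0 CPM or less and 7 at 56.7 CPM or more; Atf7ip and Mbd1 tend to be higher where Aire is lower (r of -0.51 and -0.41).

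Set against the 10950 other genes with a mean of at least 10 CPM, the 0.82 of Sirt1 ranked 144th, within the top 1.32%. The median r of these genes with Aire was -0.03, and 198 of them, 1.81%, had an r over 0.8. Jmjd6 ranked at 21.8%, Top1 at 26.5%, Hipk2 at 32.8%, Chd4 at 33.1%, Prkdc at 35.9%, Mbd1 at 84.1% and Atf7ip at 90.9% of that order. The 6 genes most like Aire were Snx8, a sorting nexin (r = 0.964), Grap, an adaptor of receptor signalling (0.956), Hagh, a hydrolase of the glyoxalase pathway (0.955), Ankrd33b (0.954), Ncf4, a subunit of the phagocyte NADPH oxidase (0.952), and N4bp2l1 (0.952). Their rho ran from 0.78 to 0.98 and their r within batch A from 0.96 to 0.98. Hagh, for example, was at 130.0 to 388.4 CPM and Snx8 at 28.8 to 138.2 CPM over the libraries.

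Markers of mature medullary epithelium, the cells that make Aire, were related to it to unequal degrees. Of 12 such genes 12 had an r above 0 with Aire (median 0.66), and 4 were over 0.8: the transcription factor Fezf2 (0.91), the class II chain H2-Ab1 (0.90), the receptor Cd40 (0.89) and the costimulatory ligand Cd80 (0.82). The weakest were the class II chain H2-Eb1 (0.06), Cd86 (0.34), the chemokine Ccl22 (0.36) and Ciita, the class II transactivator (0.38). Negative values were shared by several other cell types. Of 7 genes of immature medullary epithelium 0 had an r above 0 (median -0.50, lowest for Trp63 at -0.61), as had 0 of 5 endothelial genes (median -0.54, lowest for Pecam1 at -0.75) and 0 of 7 fibroblast genes (median -0.23). In the NF-kB pathway that induces Aire, Nfkb2 was at 0.87, Tnfrsf11a, the receptor RANK, at 0.74, and Relb at 0.73, while Ltbr was at -0.46 and Rela at -0.10. Uhrf1, which guides maintenance methylation of DNA, was the 1 gene over 0.8 (0.83) among 14 genes of methylated DNA and H3K9 silencing. These genes were singled out for their r after it was seen.

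The summed mature medullary markers were at 30010 to 40500 CPM in R249C/R249C, 29790 to 38820 in WT/R249C and 26830 to 35690 in WT/WT, and r of Aire with that sum was 0.67. Most of the sum was Cd74, the class II chaperone (18320 to 29280 CPM over the libraries), so it tells little of Fezf2 (101.0 to 487.9 CPM) or Cd80 (4.47 to 72.8 CPM), which varied more. Sirt1 had 0.64 with it, and r with the library totals was -0.04 for Aire and 0.08 for Sirt1. In bulk libraries, fewer mature cells and less Aire or Sirt1 RNA per cell cannot be told apart. Atf7ip went with markers of other cells instead, at 0.71 with the fibroblast sum and 0.65 with the immature medullary sum. Mbd1 had 0.64 with the fibroblast sum. Dcn alone was at 671.1 to 1673 CPM over the libraries, where the fibroblast sum ran from 860.3 to 2339. Fibroblast genes were 7 higher and 0 lower in R249C/R249C against WT/R249C (median log2 fold change 1.06), where 50.8% of all genes were higher. Of these 7, 0 were called and 0 had an edgeR unadjusted p under 0.05. Their sums in batch A were 1236, 2339 and 1943 CPM in R249C/R249C and 1454, 2008 and 860.3 in WT/R249C. The last, WT/R249C replicate 3, had 3 of the 7 at 0 counts. Against WT/WT the 7 genes were 1 and 6 in WT/R249C (-1.60) and 5 and 2 in R249C/R249C (0.05). Prkdc had -0.77 with the thymocyte sum and 0.73 with mitochondrial transcripts. The part of these cells in the member values was not tested.

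**Figure D4:**
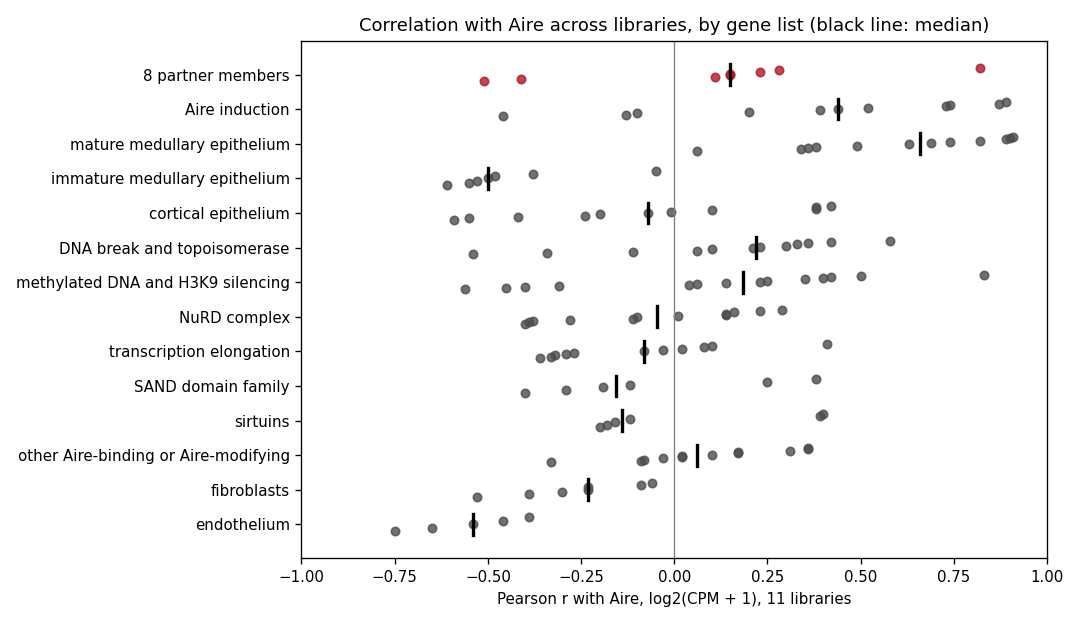
Pearson r with Aire (horizontal axis) over 11 libraries for the 8 partners (red) and for the genes of 13 lists (grey), with the median of each as a black line. Mature medullary genes lie at a median of 0.66 immature medullary genes at -0.50 and endothelial genes at -0.54, and of the partners Sirt1 alone lies above 0.8.

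Because Aire and Sirt1 levels moved together, their promoters are shown, the 250 bases before each RefSeq start on GRCm38.p6, both on the minus strand of chromosome 10. The Aire window is chr10:78043611-78043860 and the Sirt1 window chr10:63339036-63339285, which lies inside the longest GENCODE span of Sirt1. Capitals mark the TATA box letters TATAAA, the box CCAAT (read as ATTGG on the other strand) and the GC box GGGCGG, each searched on both strands.
Aire promoter: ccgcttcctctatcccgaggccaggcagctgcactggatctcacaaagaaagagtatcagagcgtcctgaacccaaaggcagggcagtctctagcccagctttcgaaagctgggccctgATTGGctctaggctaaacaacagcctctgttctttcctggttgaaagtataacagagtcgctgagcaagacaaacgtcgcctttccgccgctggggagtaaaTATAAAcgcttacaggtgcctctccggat
Sirt1 promoter: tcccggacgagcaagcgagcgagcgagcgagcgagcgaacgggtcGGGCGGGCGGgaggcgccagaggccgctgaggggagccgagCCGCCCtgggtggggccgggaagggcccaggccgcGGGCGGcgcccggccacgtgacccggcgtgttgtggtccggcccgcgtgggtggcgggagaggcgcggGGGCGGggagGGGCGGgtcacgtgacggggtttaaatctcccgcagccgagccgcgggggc
They are unlike in composition. The Aire window held 11 CpG and 53.2% G and C, with TATAAA at position -29 from the start, CCAAT at -131 and no GGGCGG. The Sirt1 window held 39 CpG and 79.2% G and C, with 6 GGGCGG, of which 2 overlap, and neither TATAAA nor CCAAT. Of 32817 promoter windows of the same length, 12.4% held TATAAA, 33.8% CCAAT and 32.7% GGGCGG, and the median held 6 CpG. The frame CANNTG was also searched on both strands, with 2 matches in each window and 66.2% of all windows holding it.

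The wider pathways of the members were described by 8 lists. Their counts stand beside all genes tested, of which 49.0% were higher in R249C/R249C than in WT/WT (median log2 fold change -0.02), 51.5% higher in WT/R249C than in WT/WT (0.02), and 50.8% higher in R249C/R249C than in WT/R249C (0.01). By edgeR, 0 genes of any list were called in any comparison, so higher and lower below give the sign of the fitted value only. The members themselves had 6 higher and 3 lower of 9 against WT/WT in both variant genotypes, with medians of 0.26 in R249C/R249C and 0.05 in WT/R249C, and 7 higher and 2 lower (0.22) in R249C/R249C against WT/R249C. For the 8 lists in the 3 comparisons, the median turned its sign in at least 1 of the 12 to 21 alternatives for 15 of 24 results and kept it for 9.

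Several marker lists had larger median differences from WT/WT than these 8 lists. Of the marker lists, only those of cortical epithelium and B cells were run over the alternatives. The lists of thymocytes, B cells and dendritic cells hold genes near 0 counts. Fitted values in R249C/R249C against WT/WT went down to -8.51 among thymocyte markers and -17.36 among B cell markers. Thymocyte markers had medians of -0.90 in R249C/R249C and -0.62 in WT/R249C. In the same order, endothelial markers were at 0.54 and 0.43 and erythrocyte markers at -0.61 and -1.05. Dendritic cell and macrophage markers were at 1.16 and 0.14, fibroblast markers at 0.05 and -1.60, and mature medullary markers at 0.59 and 0.21. The 1.16 comes from fitted values of -1.26 to 11.61, with 2 to 4 of the 10 genes at 0 counts in each R249C/R249C library. The summed CPM of those 10, not adjusted for batch, was lower in R249C/R249C (144.9 ± 88.5) than in WT/WT (196.4 ± 105.2). Immature medullary genes were at 0.09 and 0.30 and mitochondrial transcripts at 0.33 and 0.21. Of 11 genes of cortical epithelium, 10 were higher and 1 lower against WT/WT both in R249C/R249C (median log2 fold change 0.81, 0.29 to 0.92 over the alternatives) and in WT/R249C (0.65, 0.50 to 0.85). Of these 11, 5 had an unadjusted p under 0.05 in each comparison by edgeR, against 3.21% and 3.48% of all genes, and 0 were called. Their summed CPM was 3521 to 4546 in R249C/R249C, 3164 to 6466 in WT/R249C and 2731 to 3886 in WT/WT. The B cell markers were lower for 7 of 7 in both comparisons, with medians of -1.37 in R249C/R249C (-2.79 to -0.07 over the alternatives, the last with a replicate block) and -2.55 in WT/R249C (-4.17 to -1.78), and 0 were called. The part of any of these cells in the values of the lists below was not tested.

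NuRD subunits other than Chd4 were mostly lower in the variant genotypes than in WT/WT: 1 higher and 11 lower of 12 in R249C/R249C (median log2 fold change -0.31) and 2 higher and 10 lower in WT/R249C (-0.22), against 6 and 6 in R249C/R249C against WT/R249C (-0.01). In WT/R249C the scaffold Gatad2b was at 40.7 ± 9.79 CPM, against 55.3 ± 10.9 in WT/WT (log2 fold change -0.57, edgeR unadjusted p = 0.0153, adjusted p = 1), and the ATPase Chd3 at 110.3 ± 17.6 CPM against 159.8 ± 9.495 (-0.56, unadjusted p = 0.0226, adjusted p = 1). Without WT/WT replicate 1, the 1 WT/WT library of batch A, the counts against WT/WT were 5 higher and 7 lower in both variant genotypes, with medians of -0.04 in R249C/R249C and -0.06 in WT/R249C, and within batch B the median in WT/R249C was -0.06. For R249C/R249C against WT/WT the smallest p values of the list were those of Mbd3 (-0.69) and Mta2 (-0.34). Between R249C/R249C and WT/R249C they were those of Rbbp4 (-0.30) and Mta3 (0.49).

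The genes of DNA breaks and topoisomerases, which work beside Top1 and Prkdc, had 5 higher and 7 lower of 12 in R249C/R249C against WT/WT (median -0.10), 6 and 6 in WT/R249C against WT/WT (0.02) and 1 and 11 in R249C/R249C against WT/R249C (-0.19). Supt16h, of the histone chaperone FACT, was at -0.50 and Xrcc5, the Ku80 subunit that recruits Prkdc to DNA ends, at 0.41 in the first. In WT/R249C against WT/WT Xrcc5 was at 0.63 and Supt16h at -0.33. Parp1 (-0.29) and Top2a (-0.37) had the smallest p values of the list in R249C/R249C against WT/R249C. The medians of the comparisons with WT/WT ran on both sides of 0 over the alternatives: in R249C/R249C from -0.23 without R249C/R249C replicate 1 to 0.20 with a replicate block, and in WT/R249C from -0.09 within batch B to 0.36 with that block. For R249C/R249C the counts were 1 and 11 without WT/WT replicate 1 (-0.18) and 7 and 5 without WT/WT replicate 3 (0.12), and for WT/R249C they were 9 and 3 within batch A (0.25). The 1 and 11 of R249C/R249C against WT/R249C were 4 and 8 without any single one of R249C/R249C replicate 2 and WT/R249C replicates 1 and 2.

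Genes of transcription elongation had 5 higher and 6 lower of 11 in R249C/R249C against WT/WT (median -0.01), 4 and 7 in WT/R249C against WT/WT (-0.16) and 7 and 4 in R249C/R249C against WT/R249C (0.03). Polr2a, the largest subunit of RNA polymerase II, was at 96.8 ± 20.3 CPM in R249C/R249C, 94.4 ± 20.1 in WT/R249C and 68.7 ± 14.6 in WT/WT, with log2 fold changes of 0.60 and 0.50 against WT/WT that did not pass. The first and the third of these medians turned their sign in alternatives, with ranges of -0.20 to 0.04 and -0.05 to 0.27. Also named by smallest p were Aff4 (-0.64) in R249C/R249C against WT/WT, Cdk9 (-0.77) in WT/R249C against WT/WT, and the acetyltransferases Crebbp (0.31) and Ep300 (0.64) in R249C/R249C against WT/R249C.

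Of 15 genes of methylated DNA and H3K9 silencing, the field of Atf7ip and Mbd1, 14 passed the filter on low counts. They had 4 higher and 10 lower in R249C/R249C against WT/WT (median -0.14), 6 and 8 in WT/R249C against WT/WT (-0.24) and 8 and 6 in R249C/R249C against WT/R249C (0.09). The first of these became 9 higher and 6 lower of 15 without WT/WT replicate 1 (0.04) and 7 and 7 without WT/WT replicate 3 (-0.02), and the third had a median of -0.04 without R249C/R249C replicate 3. The H3K9 methyltransferase Ehmt1 was at 68.0 ± 13.4 CPM in WT/R249C and 93.6 ± 12.7 in WT/WT (-0.48, edgeR unadjusted p = 0.0387, adjusted p = 1). Cbx1, an HP1 protein, was at -0.35 in that comparison. Dnmt1 (-0.62) and Ehmt1 (-0.27) were named for R249C/R249C against WT/WT, and Dnmt3b (-1.63) and Dnmt3a (0.37) for R249C/R249C against WT/R249C, where Dnmt3b averaged 3.62 ± 2.03 CPM in R249C/R249C, against 12.0 ± 12.3 CPM in WT/R249C of batch A.

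The 6 SAND domain genes had 4 higher and 2 lower in R249C/R249C against WT/WT (median 0.11), 4 and 2 in WT/R249C against WT/WT (0.10) and 2 and 4 in R249C/R249C against WT/R249C (-0.11), with Gmeb2 (-0.78) and Sp140 (0.31), Sp110 (0.25) and Sp140 (0.16), and Gmeb2 (-0.73) and Gmeb1 (0.58) of smallest p in that order. In R249C/R249C against WT/WT the SAND domain counts turned to 2 higher and 4 lower without R249C/R249C replicate 2 (-0.19), by limma voom (-0.05) and with a replicate block (-0.20), and the other 2 medians turned their sign without single libraries, to -0.01 in WT/R249C against WT/WT and up to 0.07 in R249C/R249C against WT/R249C. The 6 sirtuins other than Sirt1 had 4 and 2 (0.29), 5 and 1 (0.21) and 3 and 3 (0.06), the last at -0.07 without R249C/R249C replicate 1. Sirt4 (0.56) and Sirt2 (0.61) in R249C/R249C against WT/WT, Sirt4 (0.76) and Sirt7 (-0.43) in WT/R249C against WT/WT, and Sirt7 (0.22) and Sirt3 (-0.33) in R249C/R249C against WT/R249C had the smallest p values. Their r with Aire ran from -0.20 to 0.40, below the 0.82 of Sirt1.

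Other genes whose proteins bind or modify Aire had 1 higher and 11 lower of 12 in R249C/R249C against WT/WT (median -0.21), 4 and 8 in WT/R249C against WT/WT (-0.22) and 6 and 6 in R249C/R249C against WT/R249C (-0.07). With no batch term the first was 5 higher and 7 lower (-0.14), and over all alternatives 1 to 5 of the 12 were higher, with medians of -0.30 to -0.14. The chromatin ATPase Smarca4 was at -0.77, and the nuclear body protein Pml at -0.62 in R249C/R249C against WT/WT. Ctcf, the insulator protein, which also acts at the Aire locus, was at 33.4 ± 5.19 CPM in WT/R249C and 54.0 ± 10.2 in WT/WT (-0.65, edgeR unadjusted p = 0.0152, adjusted p = 1), and Hnrnpl, an RNA-binding protein, at -0.77. In R249C/R249C against WT/R249C, Ctcf was at 0.46 and the exportin Xpo1 at -0.57.

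The pathway that induces Aire had 5 higher and 6 lower of 11 in R249C/R249C against WT/WT (median -0.10), 4 and 7 in WT/R249C against WT/WT (-0.18) and 7 and 4 in R249C/R249C against WT/R249C (0.09). None of these held its sign. The first median turned in 9 of 20 alternatives, among them 8 and 3 without R249C/R249C replicate 2 (0.17), 8 and 3 by limma voom (0.22), 7 and 4 within batch A (0.21) or with the contested libraries left out (0.21), and 8 and 3 with a replicate block (0.45). The second was 7 and 4 within batch A (0.15), and the third 4 and 7 without WT/R249C replicate 2 (-0.15). Ikbkb, a kinase of NF-kB activation, averaged 169.6 ± 12.8 CPM in R249C/R249C, against 122.9 ± 10.2 CPM in WT/R249C of batch A (0.50, edgeR unadjusted p = 0.0311, adjusted p = 1), with the kinase Chuk at 0.55. Rela (-0.45) and Ikbkb (0.47) were named for R249C/R249C against WT/WT, and Traf3 (-0.53) and Map3k14 (0.36) for WT/R249C against WT/WT.

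**Figure D5:**
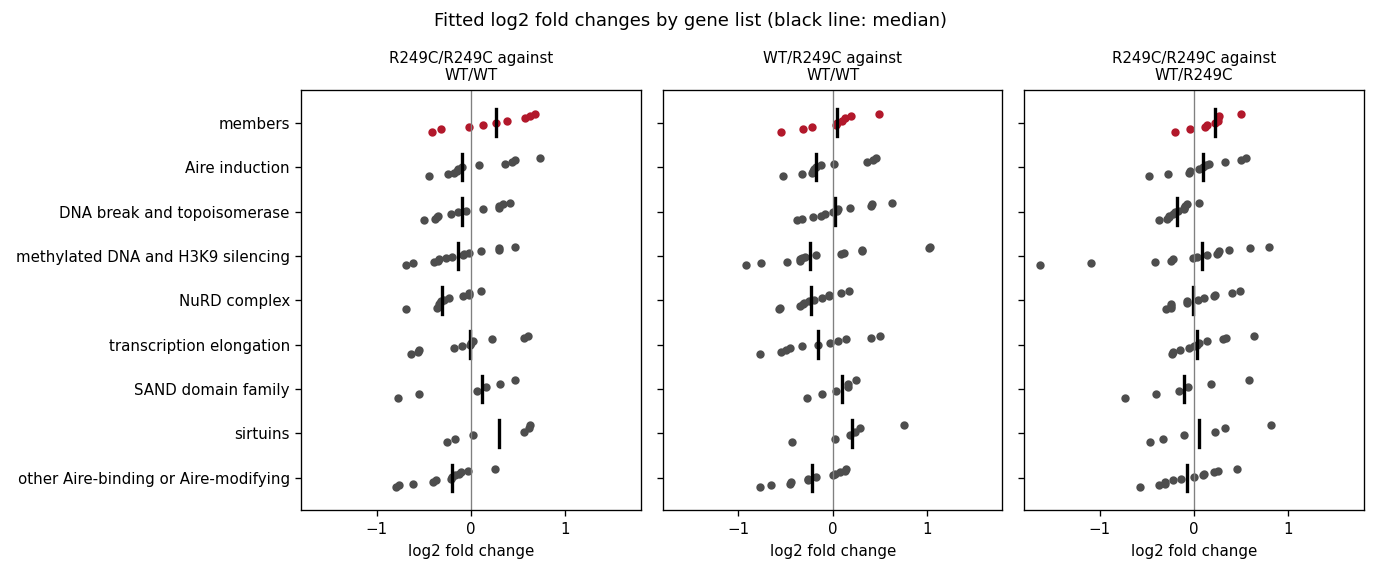
Fitted log2 fold changes (horizontal axes) of the 9 members (red) and of the genes of 8 lists (grey) in the 3 comparisons, first genotype over second, with list medians as black lines. NuRD subunits have medians of -0.31 and -0.22 against WT/WT and -0.01 between the variant genotypes, and 0 of the genes shown passed the test.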

How the data were processed

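The authors deposited 1 table of raw whole-number counts, genes by libraries. The submitters' processing notes name FastQC, HISAT2, StringTie and the mouse build mm39; versions, annotation, the counting step and its use of strand are not given in the sources used here. The word trimmed stands in the column names of batch A but not of batch B. The reference at hand is GRCm38, so it gave names (52073 genes matched, at least 99.66% of counts in each library), exon lengths and sequences, and no position was joined to the counts.

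CPM were computed over column totals. Tests used edgeR 4.0.16 in R 4.3.3 (TMM scaling, filterByExpr, robust quasi-likelihood fit), two-sided, with Benjamini-Hochberg adjustment over all genes tested and a threshold of 0.05. Both comparisons with WT/WT came from 1 fit to genotype and batch in the 11 libraries, so fitted values are adjusted for batch and CPM means are not. The third used the 6 batch A libraries. Intervals are 95%, from standard errors derived from the F statistic, and approximate. Alternatives were DESeq2 1.42.0 and voom of limma 3.58.1 with sample weights, beside other scaling, no filter, no batch term, single batches, the contested libraries left out or regrouped, a replicate block and each library left out. The edgeR step was also run on simulated counts, whose outcome is not given here. The common biological coefficient of variation that edgeR estimated over the 11 libraries was 1.223 of the mean. The coefficients of the members were lower, from 21.9% for Top1 to 58.5% for Sirt1. With spreads of these sizes, 0 genes called cannot tell small differences from none. The pseudocount of correlations was 1 CPM.

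Named genes were the members, the 2 of smallest raw p in each list and comparison, any gene called, and the 6 genes of highest r with Aire among named genes of at least 10 mean CPM. Members and lists were chosen with earlier results of these data known. Reads carry no molecular identifiers.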

Additional observations from a re-analysis of the deposited data

Results flagged for a closer look

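Chd4 was at 273.3 CPM in WT/R249C replicate 3, the highest of the 5 WT/R249C libraries. Its distance to the next library, 142.8 CPM, took 0.801 of the range of the group, above Dixon's limit of 0.71 for 5 samples. The other members showed no such value in WT/R249C, and groups of 3 were not examined. Chance flags about 1 in 20 groups.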

How the results depend on the processing

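In 0 of the alternatives was a member called (smallest adjusted p 0.6415, by DESeq2), and edgeR and limma voom called 0 genes in every one run. DESeq2 called 408 genes in R249C/R249C against WT/WT, 274 in WT/R249C against WT/WT and 33 in R249C/R249C against WT/R249C. Of 477 alternative fold changes 51 turned their sign, in 13 of the 27 results, and the cause was not tested. Values below are log2 fold changes.

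In R249C/R249C against WT/WT, Top1 was at 0 with DESeq2 size factors, 0.02 with no filter, 0 by DESeq2, 0.04 with no batch term, 0.11 within batch A, 0.11 with the contested libraries left out and 0.07 with a replicate block. In WT/R249C against WT/WT, limma voom gave -0.03 for Aire, -0.07 for Sirt1 and 0 for Hipk2, and batch B alone -0.14, -0.33 and -0.30. Jmjd6 was at -0.02 within batch A, -0.02 with the contested libraries left out, -0.07 with them counted as R249C/R249C and -0.13 with a replicate block, and Atf7ip at -0.10 and -0.04 in the last 2. In R249C/R249C against WT/R249C, limma voom gave -0.10 for Prkdc, 0.06 for Chd4 and 0.06 for Hipk2, and the fit of all 11 libraries 0.07 for Hipk2. The contested libraries are not in that comparison.

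With each library left out in turn, R249C/R249C against WT/WT ran from -0.14 to 0.78 for Sirt1, -0.12 to 0.11 for Top1 and -0.29 to 0.33 for Hipk2. WT/R249C against WT/WT ran from -0.14 to 0.52 for Aire, -0.41 to 0.55 for Sirt1, -0.30 to 0.26 for Hipk2, -0.20 to 0.23 for Jmjd6 and -0.04 to 0.27 for Atf7ip. R249C/R249C against WT/R249C ran from -0.15 to 0.58 for Aire, -0.28 to 0.54 for Sirt1, -0.05 to 0.33 for Prkdc, -0.38 to 0.14 for Chd4 and -0.16 to 0.06 for Hipk2.

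The median of all genes moved to 0.20 and 0.40 in the comparisons with WT/WT within batch A, 0.20 and 0.28 with the contested libraries left out and 0.30 and 0.33 with the replicate block. Libraries with the same replicate number in their titles had residuals correlated from -0.22 to 0.14. Libraries of unlike numbers were not compared in this way, so these values cannot decide whether the numbers mark pairs. The main fits did not take the numbers as pairs. The replicate block used the same numbers, which join WT/WT libraries of batch B to libraries of batch A. WT/WT replicates 1, 2 and 3 carry library numbers 3, 4 and 5, and pairing by library number was not tested. With the replicate block Aire was at 1.26 in R249C/R249C against WT/WT (edgeR adjusted p = 0.8652), and 0 genes were called. With the 1 WT/WT library of batch A alone, its spread is assumed to be that of the other groups.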
